A study of Mus musculus with 8 samples.

Results

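The NF-κB transcription factor subunits and their IκB inhibitors were followed at the mRNA level in primary mouse astrocytes. The set held 10 of the 54146 genes in the files, chosen by gene symbol. They were the 5 subunits Nfkb1, Nfkb2, Rela, Relb and Rel, the 3 classical inhibitors Nfkbia, Nfkbib and Nfkbie, and the 2 atypical nuclear IκB proteins Nfkbiz and Bcl3. All 10 symbols were found in each of the 8 files, and all 10 genes passed the filter on low counts in every comparison. The glial cells came from cortices of C57BL/6 pups at postnatal days 2 to 5 and were infected in mixed culture with a lentivirus that carried a short hairpin RNA against Gstm1 (GSTM1 KD) or a non-silencing hairpin (control KD). Infected cells were selected with puromycin before astrocytes were enriched by removal of CD11b-positive microglia, so lentiviral infection and antibiotic selection were shared by every group. Each knockdown was sequenced unstimulated (basal level) and after exposure to 50 ng/ml of TNF-α for 6 h, and each group had 2 replicates. The study calls these biological replicates, but the labels do not say that they came from separate cultures, and p-values otherwise measure only the spread between these samples.

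NF-κB is a family of dimeric transcription factors that share the Rel homology domain. In resting cells most dimers are held in the cytoplasm by IκB proteins, whose ankyrin repeats cover the nuclear localization signal of the dimer. TNF-α, through its receptor and the IκB kinase (IKK) complex, causes phosphorylation and degradation of IκB, and the released dimers enter the nucleus. Among the genes that NF-κB is known to switch on are several of its own inhibitors and subunits, which makes the pathway self-limiting. In astrocytes NF-κB is known for driving cytokine, chemokine and adhesion molecule genes in inflammation. Only mRNA was measured here, so neither IκB protein nor nuclear translocation was observed.

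Total expected counts, the number of fragments that the quantification assigned to genes, ran from 17349676 to 34434633 per library. Counts of the 10 genes ran from 27 for Bcl3 in replicate 1 of basal GSTM1 KD to 9158 for Nfkbia in replicate 1 of stimulated control KD. Bcl3 had the fewest counts of the 10 in every library except replicate 2 of stimulated control KD, where Rel had 200 and Bcl3 had 206. Gstm1, the knockdown target, had 4851 to 9644 counts in the 4 control KD libraries and 405 to 676 in the 4 GSTM1 KD libraries. The 9 astrocyte markers summed to 1583 to 3787 TPM (a level scaled for transcript length and depth) in basal control KD and to 3650 to 5724 TPM in basal GSTM1 KD. After TNF-α stimulation the sums were 1581 to 3643 and 3496 to 5420 TPM. Among microglial markers, Aif1 was at 0 in all 4 GSTM1 KD libraries, and Itgam and Cx3cr1 reached at most 0.67 and 0.19 TPM in any library.

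The DNA just upstream of the genes is shown because several members are known to be regulated by NF-κB itself through κB sites. Promoter windows of 250 bases before to 50 bases after a start site were taken from RefSeq (GRCm38.p6), which matched 7 of the 10 genes, with Nfkb1, Relb and Nfkbiz not matched. The 10-base κB consensus was searched on both strands. Overlapping matches were each recorded. It occurred in 7 of the 9 windows of these genes and in 4.505% of all 32851 windows. Nfkb2 has 3 windows, and its later windows overlap and share a match, so the 7 are not independent. By gene, 5 of the 7 had a match. The genes with a match were Nfkb2, Rel, Nfkbia, Nfkbie and Bcl3. In the Rela and Nfkbib windows no such run of letters occurred. A looser form, which fixes only the 3 G and the pair of C, had 3 matches in the Rela window and 0 in the Nfkbib window. It occurred in 6 of the 7 genes and in 50.793% of all windows. The 120 bases before the start site follow for 6 of the genes, written 5′ to 3′ on the strand of the gene, with consensus matches in capitals. Nfkbia, Nfkbie, Nfkb2 and Rel carry a match in this stretch, and Rela and Nfkbib are given for contrast.
Nfkbia (chr12:55492648-55492767, minus strand): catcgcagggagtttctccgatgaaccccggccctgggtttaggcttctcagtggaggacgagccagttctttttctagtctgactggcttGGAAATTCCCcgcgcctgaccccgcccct
Nfkbie (chr17:45555580-45555699, plus strand): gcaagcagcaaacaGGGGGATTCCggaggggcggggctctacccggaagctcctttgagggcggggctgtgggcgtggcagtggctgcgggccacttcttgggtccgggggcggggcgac
Nfkb2 (chr19:46304617-46304736, plus strand): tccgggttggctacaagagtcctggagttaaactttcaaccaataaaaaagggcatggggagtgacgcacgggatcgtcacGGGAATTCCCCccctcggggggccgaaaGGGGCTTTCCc
Rel (chr11:23770970-23771089, minus strand): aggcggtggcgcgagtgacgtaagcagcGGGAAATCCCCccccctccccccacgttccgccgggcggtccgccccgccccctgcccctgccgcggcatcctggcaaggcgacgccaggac
Rela (chr19:5637421-5637540, plus strand): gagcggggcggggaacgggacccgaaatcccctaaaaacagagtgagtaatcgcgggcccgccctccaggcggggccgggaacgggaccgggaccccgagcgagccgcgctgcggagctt
Nfkbib (chr7:28766645-28766764, minus strand): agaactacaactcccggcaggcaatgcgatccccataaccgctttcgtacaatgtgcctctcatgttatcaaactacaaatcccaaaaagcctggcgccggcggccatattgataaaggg
The Nfkbia match lies 29 to 20 bases upstream of the start site and the Nfkbie match 106 to 97 bases upstream. Rel holds a pair of overlapping matches between 92 and 82 bases upstream. The stretch shown for Nfkb2, upstream of the first of 3 start sites listed, holds an overlapping pair between 39 and 29 bases upstream and a further match 11 to 2 bases upstream. The Bcl3 match lies 2 to 11 bases after its start site and is not shown. These matches describe letters in the reference genome and were not measured for binding.

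At the basal level the subunit mRNAs differed widely in level, with Rela far above the rest and Rel the lowest. Rela, which encodes the main transactivating subunit of the canonical dimer, stood at 67.66 and 63.49 TPM in the control KD libraries. Nfkb2, the precursor of the non-canonical pathway's DNA-binding subunit, stood at 30.34 and 29.85 TPM. Nfkb1, the precursor of the canonical DNA-binding subunit, stood at 26.53 and 24.13 TPM, and its range overlapped that of Relb. Relb, the partner of processed Nfkb2, was at 25.11 and 21.30 TPM. Rel, best known from lymphocytes, was at 1.22 and 2.01 TPM in spite of 183 and 216 counts, since its effective length of 7221 to 7242 bases was the longest of the 10. Among the inhibitors, Nfkbia was the most abundant at 72.19 and 56.20 TPM and overlapped Rela. Nfkbib was at 28.78 and 25.77 TPM, and Nfkbie, at 5.93 and 5.63 TPM, could not be separated from the nuclear protein gene Nfkbiz at 5.88 and 5.0 TPM. Bcl3 was at 2.04 and 3.21 TPM.

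After TNF-α stimulation this order changed. In control KD astrocytes Nfkbia rose to 610.72 and 679.56 TPM, far above all other members. Behind it came a group of 6 genes whose neighbouring ranges overlapped, in the order Nfkb2, Relb, Rela, Nfkbie, Nfkb1 and Nfkbib, with mean levels from 127 down to 69.3 TPM. In GSTM1 KD astrocytes the order after stimulation was Nfkbia, Nfkb2, Relb, Nfkbie, Rela, Nfkbib and Nfkb1, and each of these was separated from the next over the 2 libraries. Rel was the lowest of the 10 in both stimulated groups, with means of 2.46 and 4.25 TPM.

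**Figure D1:**
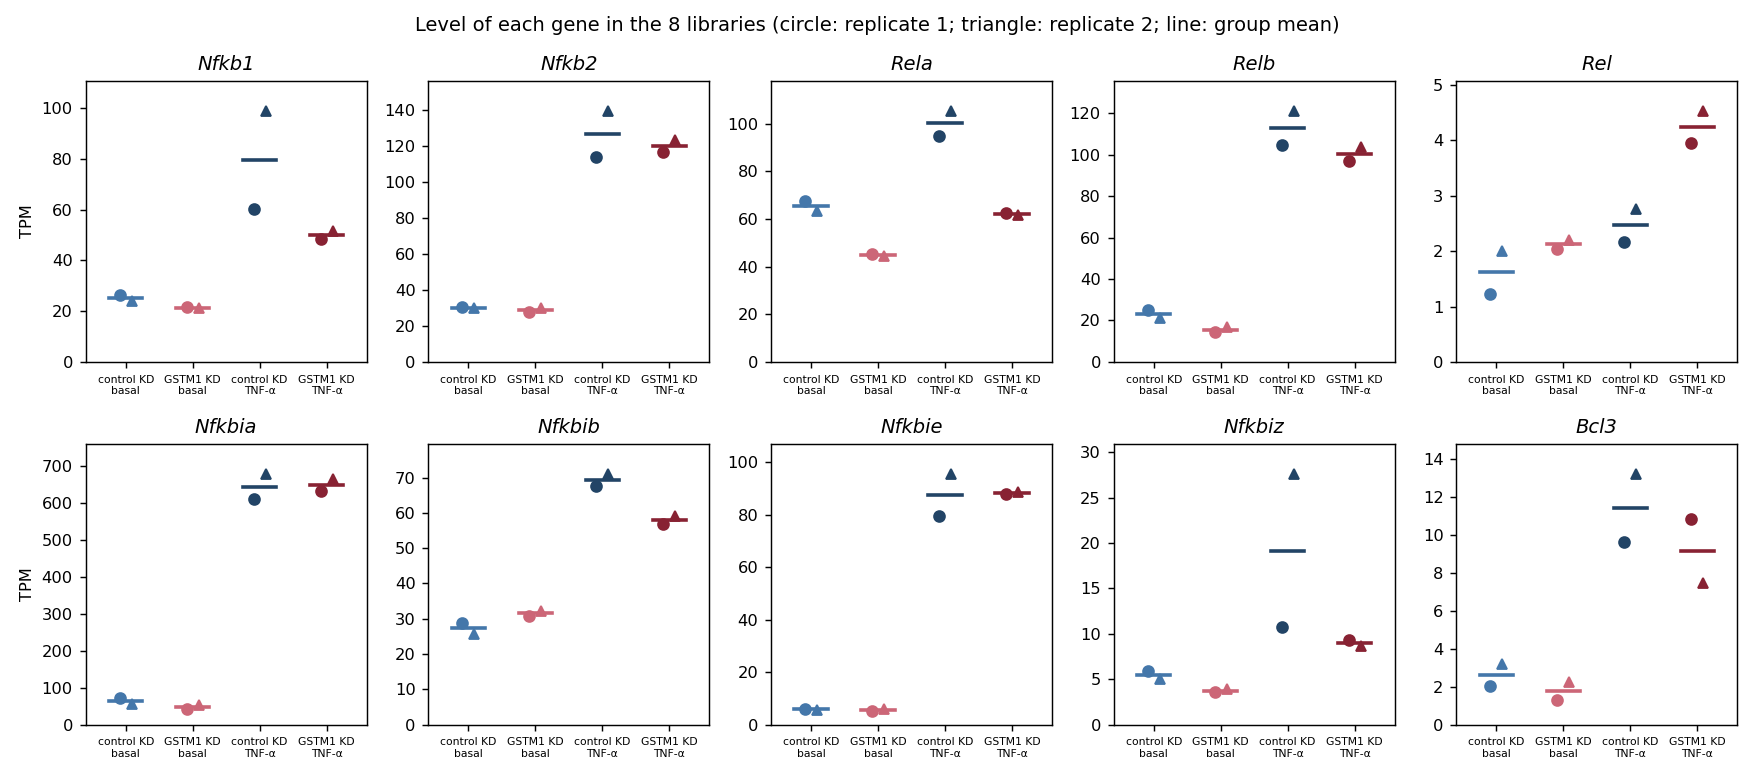
Level of each of the 10 genes in TPM (vertical axis, linear, starting at 0, scale set per gene) in the 4 groups, with the 2 libraries of each group as points and the group mean as a line. Nfkbia reaches 679.56 TPM after TNF-α stimulation, and control KD replicate 2 after TNF-α stands apart for Nfkb1 (98.84 TPM) and Nfkbiz (27.63 TPM).

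TNF-α raised most of the family in control KD astrocytes. The comparison of stimulated with basal libraries asks how far the feedback inhibitors and the subunits themselves were induced. Of the 10 genes, 8 rose by edgeR's quasi-likelihood test (adjusted p under 0.05 over all 15332 genes tested), and 0 fell, where 2.1% of all genes rose and 0.528% fell. The median log2 fold change of the 10 genes was 1.97, against -0.02 over all genes tested. Less RNA per cell and fewer cells of a type cannot be told apart in these bulk libraries, here or in the comparisons that follow. Among the markers of other cell types, the mural marker Pdgfrb fell in control KD from 16.8 to 25.78 TPM to 7.43 to 9.82 TPM (log2 fold change -1.28 ± 0.22, adjusted p = 0.0278), and the oligodendrocyte lineage marker Olig2 fell in GSTM1 KD from 58.84 to 59.14 TPM to 35.45 to 37.0 TPM (-0.67 ± 0.12, adjusted p = 0.0310). No other marker on the 7 cell type lists passed in either response, and the part of these in the response of the 10 genes was not tested.

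The classical inhibitors Nfkbie and Nfkbia had the highest responses of the 10 in both knockdowns. Nfkbie, which encodes IκBε, went from 5.93 and 5.63 TPM to 79.59 and 95.61 TPM in control KD, a 15.4-fold rise (log2 fold change 3.94 ± 0.13 SE, edgeR adjusted p = 0.000121). In GSTM1 KD it went from 5.30 and 6.01 to 87.79 and 88.56 TPM, a 16.0-fold rise (4.0 ± 0.13, adjusted p = 0.000125). Basal and stimulated libraries of Nfkbie were thus far apart in both knockdowns. Nfkbia encodes IκBα, the inhibitor that is degraded first after TNF-α and is then resynthesized. It rose 9.94-fold in control KD (log2 fold change 3.31 ± 0.16, adjusted p = 0.000239). The GSTM1 KD libraries went from 41.36 and 53.93 TPM to 633.99 and 666.70 TPM, a 14.0-fold rise (3.81 ± 0.17, adjusted p = 0.000255). The stimulated Nfkbia levels of the knockdowns overlapped. Nfkbib, which encodes IκBβ, rose less, from 28.78 and 25.77 to 67.58 and 71.07 TPM in control KD, a 2.57-fold rise (1.36 ± 0.11, adjusted p = 0.00165). In GSTM1 KD it went from 30.71 and 32.31 to 56.88 and 59.04 TPM, a 1.86-fold rise (0.89 ± 0.11, adjusted p = 0.00634). Exons of Nfkbib overlap those of Sirt2 on the opposite strand, which had up to 2787 counts, and whether strand was used in counting is not given in the sources used here, so the Nfkbib values are uncertain.

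Among the subunits, those of the non-canonical pathway rose the most. Relb went from 25.11 and 21.30 TPM to 104.77 and 121.10 TPM in control KD (5.10-fold, log2 fold change 2.35 ± 0.14, edgeR adjusted p = 0.000459). The GSTM1 KD libraries went from 14.37 and 16.90 to 97.11 and 103.60 TPM (6.75-fold, 2.75 ± 0.14, adjusted p = 0.000268). Nfkb2 stood at 114.15 and 139.47 TPM in stimulated control KD and 116.82 and 123.49 TPM in stimulated GSTM1 KD, from about 30 TPM at the basal level. Its rise was 4.26-fold in control KD (2.09 ± 0.12, adjusted p = 0.000450) and 4.21-fold in GSTM1 KD (2.07 ± 0.12, adjusted p = 0.000447). For Nfkb2, as for Relb, the basal and stimulated libraries did not overlap. Nfkb1 went from 26.53 and 24.13 TPM to 60.29 and 98.84 TPM in control KD, with the 2 stimulated libraries well apart (3.31-fold, 1.73 ± 0.23, adjusted p = 0.0116). In GSTM1 KD it went from 21.57 and 21.18 to 48.56 and 51.46 TPM (2.44-fold, 1.29 ± 0.23, adjusted p = 0.0334). Rela, in contrast to its partners, rose only 1.55-fold in control KD, from 67.66 and 63.49 to 94.96 and 105.32 TPM (0.63 ± 0.09, adjusted p = 0.0146). In GSTM1 KD the rise was 1.42-fold, from 45.22 and 44.37 to 62.51 and 61.63 TPM (0.51 ± 0.09, adjusted p = 0.0342). Rel did not pass the test, with 2.16 and 2.77 TPM after stimulation in control KD (log2 fold change 0.64 ± 0.25, adjusted p = 0.347, and from 0.32 without basal replicate 1 to 1.04 without basal replicate 2) and 3.96 and 4.53 TPM in GSTM1 KD (1.03 ± 0.25, adjusted p = 0.105, and 0.0131 in DESeq2).

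The atypical proteins act in the nucleus, where Bcl3 and IκBζ, the product of Nfkbiz, bind NF-κB dimers on DNA and can activate as well as repress. Bcl3 went from 2.04 and 3.21 TPM to 9.60 and 13.21 TPM in control KD (5.43-fold, log2 fold change 2.44 ± 0.26, edgeR adjusted p = 0.00609). The GSTM1 KD libraries went from 1.28 and 2.23 to 10.83 and 7.44 TPM (5.42-fold, 2.44 ± 0.28, adjusted p = 0.00547). Nfkbiz was at 10.72 and 27.63 TPM in the stimulated control KD libraries, which lie wide apart, against 5.88 and 5.0 TPM at the basal level (1.85 ± 0.44, adjusted p = 0.0875). In GSTM1 KD it was at 9.30 and 8.68 TPM after stimulation and 3.58 and 3.92 TPM before (1.26 ± 0.45, adjusted p = 0.324). Nfkbiz thus did not pass edgeR in either knockdown although basal and stimulated libraries did not overlap. Without the filter on low counts edgeR called it in both, and DESeq2 called it in control KD (log2 fold change 1.87, adjusted p = 0.000210) and not in GSTM1 KD (adjusted p = 0.0594). Its control KD response was 0.90 without stimulated replicate 2 and 2.43 without stimulated replicate 1.

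In GSTM1 KD astrocytes as in control KD, 8 of the 10 genes rose and 0 fell, and Rel and Nfkbiz were again those that did not pass. Of all genes tested, 2.35% rose and 0.294% fell in GSTM1 KD. The median log2 fold change of the 10 genes was 1.68 there, against -0.01 over all genes. The calls for Nfkb2, Relb, Nfkbia and Nfkbie held when any 1 library was left out, in both knockdowns. In control KD, Nfkb1 lost its call without basal replicate 1 (adjusted p = 0.0540) or 2 (adjusted p = 0.0593), and Rela lost it without basal replicate 2 (adjusted p = 0.0708) or stimulated replicate 2 (adjusted p = 0.0694). Nfkbiz passed in control KD without stimulated replicate 1, the lower of the pair (adjusted p = 0.0011). In GSTM1 KD, leaving out any of its 4 libraries ended the calls of Nfkb1 and Rela, with adjusted p up to 0.254 and 0.264. Nfkbib lost its call there without either basal replicate or stimulated replicate 1 (adjusted p up to 0.0924), and Bcl3 without either basal replicate (adjusted p up to 0.0742).

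**Figure D2:**
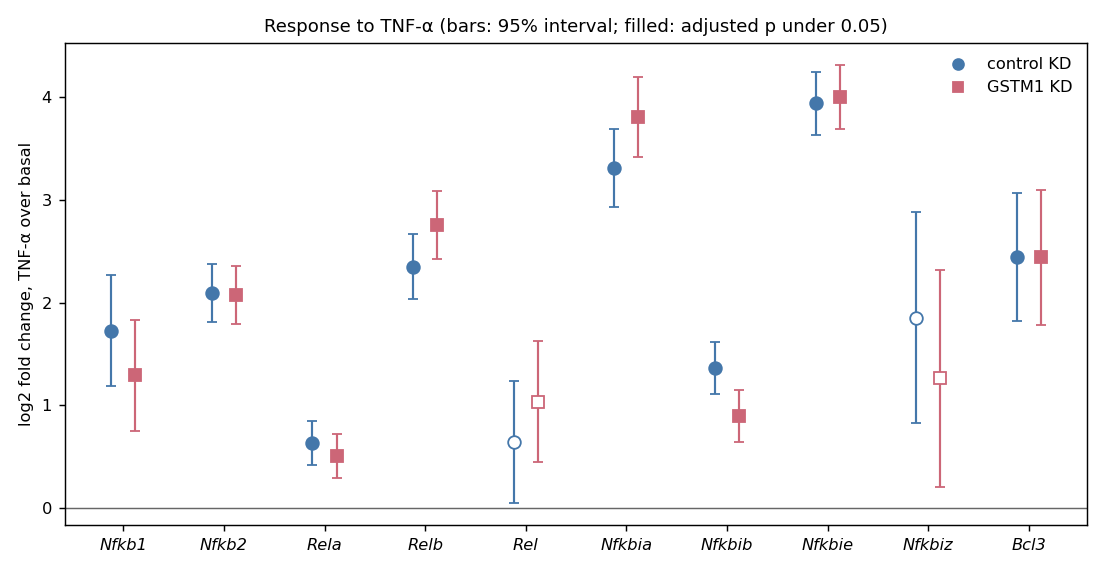
Log2 fold change of each gene after TNF-α stimulation over the basal level (vertical axis) in control KD (circles) and GSTM1 KD (squares). Bars are 95% intervals of the edgeR fit and filled symbols have an adjusted p under 0.05; Nfkbie is highest at 3.94 and 4.0, and the open symbols are Rel and Nfkbiz.

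Whether the response to TNF-α differed between GSTM1 KD and control KD was tested by the interaction term on all 8 libraries. For 0 of the 10 genes did the response differ by edgeR (0% of all genes were higher and 0% lower), and by DESeq2 0 of the 10 passed as well, with 22 genes higher and 5 lower among all tested. At an unadjusted p under 0.05 edgeR had 1 of the 10, Nfkbib, and 295 of all 15332 genes. For Nfkbib the response was lower in GSTM1 KD by 0.47 on the log2 scale (-0.47 ± 0.15, 95% interval -0.82 to -0.11). For Relb it was 0.40 ± 0.19 higher (interval -0.03 to 0.84) and for Nfkbia 0.49 ± 0.21 higher (interval -0.01 to 0.99). The intervals of Nfkb2 (-0.40 to 0.36), Rela (-0.43 to 0.18) and Nfkbie (-0.35 to 0.47) still leave room for differences of some size. Those of Nfkb1 (-1.19 to 0.31), Rel (-0.44 to 1.23) and Nfkbiz (-2.04 to 0.86) are wider. The adjusted p was 1 for all 10 genes.

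GSTM1 KD was then compared with control KD within each state, which asks whether reduced Gstm1 moved the family's mRNA with and without the cytokine. In the main edgeR fit (the 4 libraries of a state, filter on low counts, TMM scaling, no replicate block) Rela was the only member that passed. It was lower in both states. Some other edgeR settings called further members, as given below. At the basal level 1 of the 10 genes was lower and 0 were higher, where 5.62% of all 14899 genes tested were lower and 4.6% were higher. After TNF-α stimulation 1 of the 10 was lower and 0 were higher, where 8.92% of all 14593 genes were lower and 7.26% were higher. A single call among 10 genes is near these backgrounds, so the counts say little about the family and the result concerns Rela itself. With a block on replicate number, edgeR also called Relb (adjusted p = 0.0104) and Nfkbia (adjusted p = 0.0172) lower at the basal level. After stimulation it also called Nfkb1 lower (adjusted p = 0.0232) and Rel higher (adjusted p = 0.0178). Over all genes the block gave 2370 lower and 2342 higher at the basal level, and 2238 and 2064 after stimulation. The labels tie no replicate number to a shared culture. The median log2 fold change of the 10 genes was -0.39 at the basal level and -0.30 after stimulation, against -0.0020 and -0.01 over all genes tested. Without control KD replicate 2 the stimulated median was -0.16, with 4 of the 10 estimates above 0 in place of 1.

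Rela stood at 67.66 and 63.49 TPM in control KD and 45.22 and 44.37 TPM in basal GSTM1 KD. Both GSTM1 KD libraries were below both control KD libraries, and Rela was 1.53-fold lower (log2 fold change -0.61 ± 0.10 SE, edgeR adjusted p = 0.0270). After TNF-α stimulation it stood at 94.96 and 105.32 TPM in control KD and 62.51 and 61.63 TPM in GSTM1 KD. The groups again did not overlap, and Rela was 1.70-fold lower (-0.76 ± 0.10, adjusted p = 0.0152). The stimulated GSTM1 KD level thus lay just below the unstimulated control KD level. The log2 fold change of Rela ranged from -0.67 to -0.56 at the basal level and from -0.84 to -0.67 after stimulation when 1 library was left out. Its call was lost at the basal level without GSTM1 KD replicate 1 (adjusted p = 0.193) or 2 (adjusted p = 0.281), and after stimulation without GSTM1 KD replicate 1 (adjusted p = 0.108) or 2 (adjusted p = 0.140). In those fits 1 and 3 genes of all tested passed at the basal level, and 0 and 94 after stimulation.

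Other features moved with the knockdown beside Rela. At the basal level the GSTM1 KD libraries were smaller, with totals of 22565132 and 19772267 against 34434633 and 26026796, while the totals of the stimulated groups overlapped. The astrocyte marker S100b was lower in both states of GSTM1 KD, the only one of 9 astrocyte markers to pass. Others in that list had higher estimates that did not pass. Before and after stimulation these log2 fold changes were 1.10 and 1.08 for Gfap and 1.11 and 1.10 for Aldoc. They were 1.05 and 1.22 for Aldh1l1, 0.67 and 0.49 for Slc1a2 and 0.36 and 0.07 for Gja1. Sox9 had lower estimates (-0.50 and -0.41), Aqp4 gave -0.08 and -0.02 and Slc1a3 gave 0.0065 and -0.03, and these did not pass either. In the astrocyte sums Gfap alone was at 706.5 to 2205.84 TPM in basal control KD and 2332.92 to 4184.21 TPM in basal GSTM1 KD. The oligodendrocyte lineage marker Olig2 was lower in both states and Olig1 after stimulation, of 8 markers in that list, which summed to 533 to 596 TPM in control KD and 423 to 441 TPM in basal GSTM1 KD and to 448 to 479 and 340 to 352 TPM after stimulation. Mog, a marker of mature oligodendrocytes, was at 0 in 7 of the 8 libraries. The fibroblast marker Col1a2 was lower in both states, and the mural marker Pdgfrb was higher after stimulation, of 6 markers that summed to 95.6 to 145 and 75.6 to 108 TPM at the basal level and 83.8 to 122 and 60.8 to 95.2 TPM after stimulation, in control KD and GSTM1 KD. None of the 3 neuron markers tested passed, and the 5 in the list summed to 189 to 200 TPM in control KD and 229 to 237 TPM in GSTM1 KD before stimulation and to 182 to 183 and 208 to 215 TPM after it. Nearly all of these neuron sums came from Tubb3 and Map2, with the rest of that list at 0.49 TPM or less in every library. Neither of the 2 ependymal and choroid markers tested passed, and the 4 in the list summed to 75.2 to 117 and 98.6 to 109.6 TPM before and to 64.8 to 75.2 and 86.7 to 99.5 TPM after. Most of these sums was Foxj1, and the ependymal marker Ccdc153, which did not pass, was at 0.16 to 0.99 TPM in control KD and 2.83 to 4.83 TPM in GSTM1 KD before stimulation (log2 fold change 3.08 ± 0.85, edgeR adjusted p = 0.0748) and at 0 to 1.19 and 2.31 to 3.4 TPM after it (3.29 ± 0.91, adjusted p = 0.0636). The 4 endothelial markers summed to at most 3.17 TPM in any library with Cldn5 at 0 in all 8, and neither of the 2 tested passed (Cdh5 at -1.65 and -1.41, Kdr at 1.39 and 1.25, before and after stimulation). None of the 4 microglial markers with enough counts passed in either state. Their part in the Rela result was not tested.

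Relb, Nfkbia, Nfkbiz and Nfkb1 did not pass the main edgeR fit at the basal level. Yet in TPM their GSTM1 KD libraries were all below the control KD libraries. The Nfkb1 values are given further below. Relb was at 25.11 and 21.30 TPM in control KD and 14.37 and 16.90 TPM in GSTM1 KD (log2 fold change -0.63 ± 0.17, edgeR adjusted p = 0.0724). It passed in DESeq2 (adjusted p = 0.0309), and in edgeR when all 8 libraries were fitted (adjusted p = 0.0224), without the filter on low counts (adjusted p = 0.00541) and without control KD replicate 2 (-0.78, adjusted p = 0.0063), but not without control KD replicate 1 (-0.47, adjusted p = 0.122). Nfkbia was at 72.19 and 56.20 TPM in control KD and 41.36 and 53.93 TPM in GSTM1 KD (-0.53 ± 0.18, adjusted p = 0.110). It passed without the filter (adjusted p = 0.00697). With the replicate block both Relb (adjusted p = 0.0104) and Nfkbia (adjusted p = 0.0172) passed in edgeR. For Nfkbia the estimate depended on single libraries. Its value was -0.69 without control KD replicate 2 (adjusted p = 0.0071), -0.35 without control KD replicate 1 (adjusted p = 0.193) and -0.37 without GSTM1 KD replicate 1 (adjusted p = 0.452). Nfkbiz was at 5.88 and 5.0 TPM in control KD and 3.58 and 3.92 TPM in GSTM1 KD (-0.54 ± 0.19, adjusted p = 0.130). Its value was -0.66 without control KD replicate 2 (adjusted p = 0.0413) and -0.42 without control KD replicate 1 (adjusted p = 0.238). After stimulation Relb was at 104.77 and 121.10 TPM in control KD and 97.11 and 103.60 TPM in GSTM1 KD (-0.25 ± 0.11, adjusted p = 0.156, and -0.14 without control KD replicate 2). Nfkbia then gave a log2 fold change of -0.06 (95% interval -0.34 to 0.22), and Nfkbie gave -0.10 (interval -0.58 to 0.39) at the basal level and -0.06 (interval -0.36 to 0.24) after stimulation. For Nfkb2 the corresponding values were -0.11 (interval -0.37 to 0.15) and -0.15 (interval -0.48 to 0.17). Without GSTM1 KD replicate 1 and 2 in turn, the basal values were -0.0065 and -0.20 for Nfkbie and -0.061 and -0.17 for Nfkb2. The groups of Nfkbie and of stimulated Nfkb2 and Nfkbia overlapped.

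Rel was the only member with a higher estimate in GSTM1 KD in both states. It was at 1.22 and 2.01 TPM in control KD and 2.04 and 2.21 TPM in basal GSTM1 KD (0.34 ± 0.28, edgeR adjusted p = 0.442). The basal value was 0.72 without control KD replicate 2 (adjusted p = 0.0413) and 0.023 without control KD replicate 1 (adjusted p = 0.957). After stimulation it was at 2.16 and 2.77 TPM in control KD and 3.96 and 4.53 TPM in GSTM1 KD (0.71 ± 0.19, adjusted p = 0.0580). In TPM the groups of Rel did not overlap in either state, but in CPM, the scale nearer the test, the basal groups overlapped (5.17 and 8.44 in control KD, 8.24 and 8.96 in GSTM1 KD). After stimulation Rel passed in DESeq2 (adjusted p = 0.0354) and in edgeR without control KD replicate 2 (0.92, adjusted p = 0.0100), and its value was 0.53 without control KD replicate 1 (adjusted p = 0.0950). Nfkbib was at 67.58 and 71.07 TPM in stimulated control KD and 56.88 and 59.04 TPM in stimulated GSTM1 KD (-0.36 ± 0.11, adjusted p = 0.0729), while at the basal level it gave 0.14 (interval -0.24 to 0.51, and 0.23 and 0.036 without control KD replicate 1 and 2). Bcl3, at few counts, gave -0.50 ± 0.34 (adjusted p = 0.369) and -0.52 ± 0.23 (adjusted p = 0.173). The basal value was -0.78 without GSTM1 KD replicate 2 and -0.26 without replicate 1, and the stimulated value was -0.72 without control KD replicate 1 and -0.28 without replicate 2.

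For Nfkb1 and Nfkbiz, control KD replicate 2 after TNF-α decided the estimate. Nfkb1 stood at 60.29 and 98.84 TPM in stimulated control KD and 48.56 and 51.46 TPM in stimulated GSTM1 KD (log2 fold change -0.74 ± 0.25, edgeR adjusted p = 0.101). Without control KD replicate 2 the value was -0.28, and without replicate 1 it was -1.08 (adjusted p = 0.0015). DESeq2 (adjusted p = 0.0202) and edgeR with the replicate block (adjusted p = 0.0232) called Nfkb1 lower. Nfkbiz stood at 10.72 and 27.63 TPM against 9.30 and 8.68 TPM (-1.15 ± 0.48, adjusted p = 0.148). Without control KD replicate 2 its value was -0.18, and without replicate 1 it was -1.73 (adjusted p = 0.0009). In both genes GSTM1 KD lay below both stimulated control KD libraries. At the basal level Nfkb1 gave -0.28 ± 0.10 (adjusted p = 0.139).

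**Figure D3:**
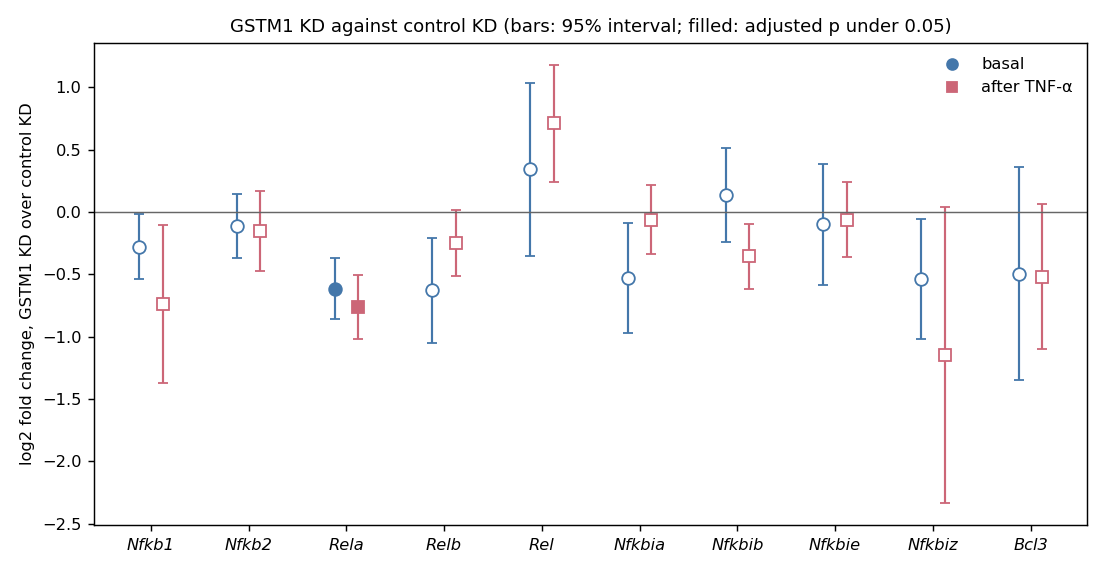
Log2 fold change of each gene in GSTM1 KD over control KD (vertical axis) at the basal level (circles) and after TNF-α stimulation (squares). Bars are 95% intervals of the edgeR fit and filled symbols have an adjusted p under 0.05; Rela is filled in both states at -0.61 and -0.76.

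The make-up of the family was described by summing TPM over the classes, with no test. The subunits summed to 146 ± 7.13 TPM (SD, n = 2) in control KD and 113 ± 2.43 TPM in basal GSTM1 KD, and to 422 ± 64.5 and 337 ± 11.1 TPM after stimulation. The inhibitors Nfkbia, Nfkbib and Nfkbie summed to 97.2 ± 13.6 and 84.8 ± 10.5 TPM at the basal level and to 802 ± 62.5 and 796 ± 25.2 TPM after stimulation. On the TPM scale the subunits thus exceeded the inhibitors before stimulation and the inhibitors exceeded the subunits after it. The ratio of inhibitors to subunits was 0.709 and 0.622 in basal control KD, which overlaps the 0.696 and 0.805 of basal GSTM1 KD. After stimulation it was 2.01 and 1.81 in control KD, below the 2.37 and 2.36 of GSTM1 KD. When the ratio was taken over CPM (counts scaled for depth but not for length), the group means were 0.290 and 0.311 at the basal level and 0.874 and 1.08 after stimulation, so that on this scale the inhibitors exceeded the subunits only in stimulated GSTM1 KD, while the order of the groups was the same. Nfkbia over Rela, the canonical inhibitor and its main target, was 0.976 ± 0.129 and 1.07 ± 0.21 at the basal level and 6.44 ± 0.01 and 10.5 ± 0.48 after stimulation, in control KD and GSTM1 KD. Both ratios are built from levels already given, so they add no separate evidence.

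Within the subunits, Rela made up 45.0% ± 0.18 (SD, n = 2) of the summed TPM in control KD and 39.7% ± 1.38 in basal GSTM1 KD. After stimulation it made up 23.9% ± 1.91 and 18.4% ± 0.79, and Nfkb2 took the first place with 30.1% ± 0.35 and 35.7% ± 0.22. Relb went from 15.9% ± 1.07 to 26.9% ± 1.37 in control KD and from 13.8% ± 1.29 to 29.8% ± 0.38 in GSTM1 KD. The non-canonical pair therefore held the larger part of subunit mRNA after stimulation in both knockdowns. Rel stayed under 2% in every library. Within the inhibitors, Nfkbia went from 65.8% ± 2.39 to 80.4% ± 0.20 in control KD and from 56.0% ± 3.54 to 81.6% ± 0.32 in GSTM1 KD, and Nfkbib fell to 8.66% ± 0.37 and 7.28% ± 0.04.

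**Figure D4:**
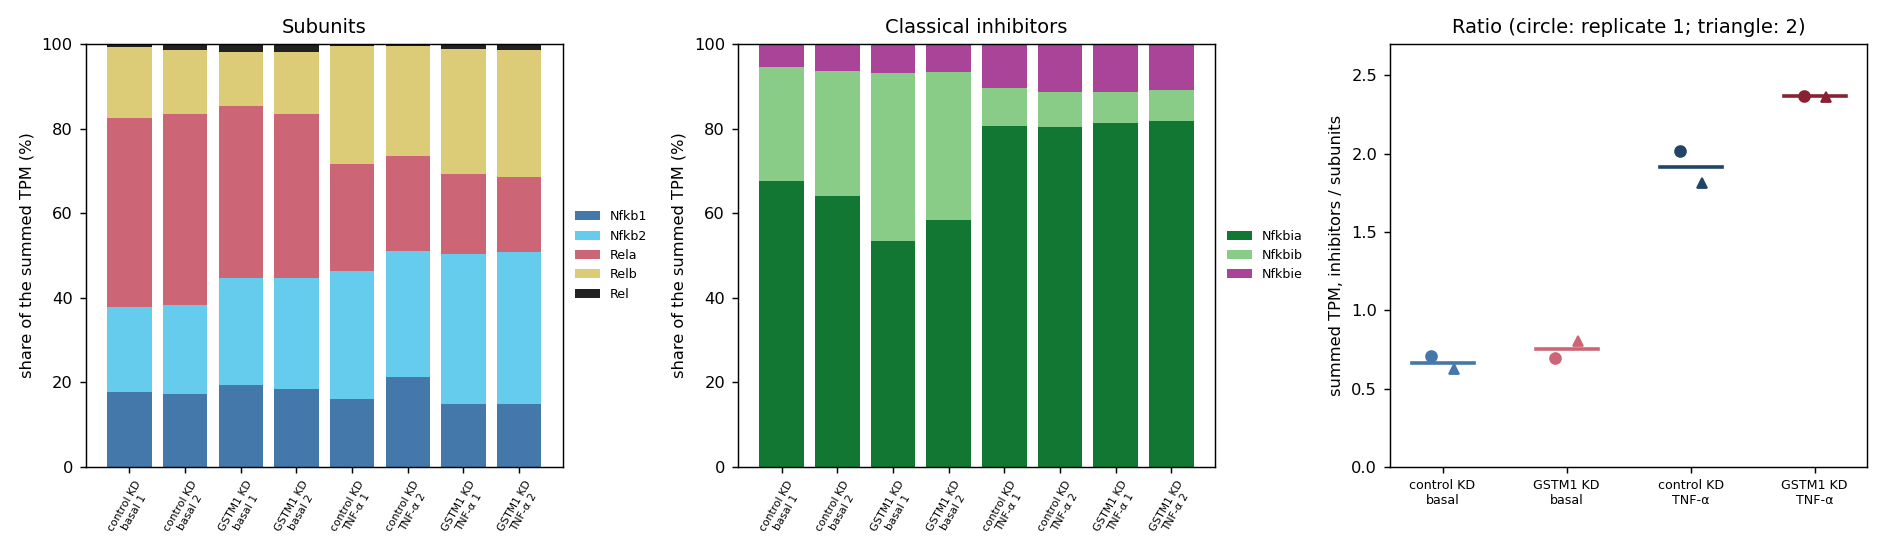
Share of each gene in the summed TPM of the 5 subunits (left, percent) and of the 3 classical inhibitors (middle, percent) in each of the 8 libraries, and the ratio of the summed TPM of inhibitors to subunits (right, 2 libraries per group with the mean as a line). Rela holds 45.0% of subunit TPM in basal control KD, and the ratio reaches 2.37 and 2.36 in stimulated GSTM1 KD.

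The other genes of the pathway were taken from a list of 34, ordered from the receptor to IκB turnover. TNF-α raised 6 of the 34 and lowered 1 in each knockdown, and these were the same 7 genes. Over all genes tested, the shares that rose were 2.1% (control KD) and 2.35% (GSTM1 KD) and the shares that fell were 0.528% and 0.294%. The 6 were Traf2, Birc2 and Birc3, which encode adaptors and ubiquitin ligases at the receptor, Cd40, a receptor of the non-canonical pathway, and Tnfaip3 and Tnip1, which encode A20 and its partner and terminate the signal. Birc3 went from 7.99 and 8.71 to 65.86 and 56.57 TPM in control KD (log2 fold change 3.08 ± 0.15) and from 3.21 and 2.35 to 36.59 and 28.43 TPM in GSTM1 KD (3.73 ± 0.16). Tnfaip3 went from 23.34 and 12.31 to 128.07 and 88.94 TPM in control KD (2.61 ± 0.31) and from 5.42 and 5.50 to 62.36 and 57.56 TPM in GSTM1 KD (3.54 ± 0.33). The gene that fell was Pdlim2, which encodes a nuclear ubiquitin ligase for Rela protein (-0.58 ± 0.09 and -0.50 ± 0.09), and this call was lost in both knockdowns when any 1 library of the comparison was left out. None of the 7 TAK1 and IKK genes and none of the 5 genes of linear ubiquitin passed in either response. In the interaction 0 of the 34 passed by edgeR or DESeq2, and 2 had an unadjusted p under 0.05 by edgeR.

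The same 34 genes were counted in the knockdown comparison. At the basal level 11 of 33 tested were lower and 2 higher in GSTM1 KD, and after stimulation 12 of 34 were lower and 3 higher, against the backgrounds given above. Of the 7 TAK1 and IKK genes, 4 were lower in both states and 0 were higher. They were Map3k7, which encodes the kinase TAK1, Tab2 and Tab3, its ubiquitin-binding partners, and Chuk, the IKKα subunit. Tab2 stood at 51.42 and 63.82 TPM in control KD and 33.41 and 30.53 TPM in basal GSTM1 KD (log2 fold change -0.88 ± 0.13, edgeR adjusted p = 0.0228), and at 62.47 and 67.57 against 33.75 and 32.28 TPM after stimulation (-1.04 ± 0.10, adjusted p = 0.0109). Chuk stood at 31.31 and 32.35 against 24.62 and 22.92 TPM at the basal level (-0.63 ± 0.11, adjusted p = 0.0290) and at 33.35 and 31.20 against 23.48 and 21.17 TPM after stimulation (-0.74 ± 0.10, adjusted p = 0.0164). The groups of both genes were separate in both states. Ikbkb, which encodes IKKβ, did not pass, at 12.58 and 13.93 TPM in control KD and 18.14 and 22.81 TPM in GSTM1 KD before stimulation (0.59 ± 0.15, edgeR adjusted p = 0.0657). Ikbkg, which encodes the NEMO scaffold, did not pass either, at 35.09 and 31.15 against 51.78 and 48.19 TPM. Its log2 fold change from counts, which the test used, was smaller than these TPM show (0.22 ± 0.11, edgeR adjusted p = 0.228).

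Ripk1, Birc3, Sharpin, Otulin and Tnfaip3 were lower in both states as well. Ripk1, the scaffold kinase of the TNF receptor complex, stood at 24.66 and 26.96 TPM in control KD and 14.70 and 15.09 TPM in basal GSTM1 KD (log2 fold change -0.88 ± 0.11, edgeR adjusted p = 0.0183). Tnfaip3 gave -1.79 ± 0.33 (adjusted p = 0.0336) at the basal level and -0.88 ± 0.18 (adjusted p = 0.0315) after stimulation. Tnfrsf1b and Rnf31 were lower at the basal level, and Fbxw11, Nfkbid and Tnip1 were lower after stimulation. Nfkbid, a further atypical IκB gene, was barely detected, at 0.85 and 0.91 TPM in stimulated control KD and 0.13 and 0.23 TPM in stimulated GSTM1 KD. Traf3, which restrains the non-canonical pathway, went the other way. It stood at 14.59 and 20.38 TPM in control KD and 37.13 and 39.95 TPM in basal GSTM1 KD (1.24 ± 0.15, adjusted p = 0.0192), and at 25.13 and 27.61 against 55.77 and 59.05 TPM after stimulation (1.07 ± 0.12, adjusted p = 0.0116). Pdlim2 was higher in both states and Cyld, a deubiquitinase, after stimulation. As for Rela, none of these calls remained when either GSTM1 KD library of the state was left out, where 0 of the list passed.

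The genes whose pattern over the 8 libraries was most like each member were ranked by Pearson's r of log2 CPM among 15331 genes. The 8 libraries fall into basal and stimulated groups, so any strongly induced gene scores high, and r is given only as a description. Nfkb2 and Nfkbie were each other's closest match (r = 0.998), and Relb was the closest to Nfkbia (r = 0.996). Relb was closest to Rai14 (r = 0.999) and Junb (r = 0.996), Nfkbia next to Cxcl10 (r = 0.996), and Nfkbie next to Irf1 (r = 0.997). For Rela the closest were Hk2 (r = 0.996) and Lif (r = 0.989), and for Nfkb1 Fstl1 (r = 0.995) and Cdkn2b (r = 0.993). Bcl3 was closest to Kcnq3 (r = 0.993), Nfkbiz to Prpf38b (r = 0.991) and Rel to Gem (r = 0.983). Nfkbib was closest, among named genes, to Tnip1 (r = 0.991).

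In the annotation used for positions (GENCODE, GRCm38) the 10 genes are protein-coding and lie on 7 chromosomes. Rela (chr19:5637483-5648130) and Nfkb2 (chr19:46304320-46312385) share chromosome 19, and Relb (chr7:19606217-19629438), Bcl3 (chr7:19808462-19822770) and Nfkbib (chr7:28758251-28767512) share chromosome 7, where Relb and Bcl3 are near neighbours. The inhibitor Nfkbia lies at chr12:55489410-55492647 and Nfkbie at chr17:45555703-45563169. Nfkb1 lies at chr3:135584655-135691547, Rel at chr11:23736847-23770970 and Nfkbiz at chr16:55811375-55838899. Exons of Nfkb2 overlap those of Psd on the opposite strand, which had at most 370 counts. The effective length, which follows the mix of transcripts, varied between libraries from 2976 to 3411 bases for Nfkb1, from 2997 to 3389 for Nfkbiz and from 1150 to 1623 for Bcl3, so TPM and counts can differ in fold for these genes.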

How the data were processed

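RNA from 8 libraries of cultured astrocytes was sequenced with a directional kit. The authors mapped reads with STAR (2.5.4b) and quantified genes with RSEM (1.3.0) on GRCm38, per the labels' processing notes. The deposited expected counts are RSEM estimates, not normalized, that share ambiguous reads among genes. The TPM values deposited by the authors are corrected for effective length and add up to a fixed total per library. Here expected counts were rounded, filtered by filterByExpr, scaled by TMM and tested with edgeR (4.0.16, R 4.3.3) by the quasi-likelihood F-test. P-values were adjusted over all genes tested by the Benjamini-Hochberg method, with 0.05 as threshold. Knockdown comparisons used the 4 libraries of a state, and TNF-α responses and the interaction all 8. Standard errors and 95% intervals come from the fit. Intervals cover these 2 libraries per group, and no molecular identifiers were used. Levels, shares and ratios used TPM without a test.

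Alternatives were DESeq2 (1.42.0), edgeR scaled by DESeq2 size factors or by nothing but library size, testing without a filter or only genes with 10 counts or more throughout, a replicate block, effective length offsets, all 8 or only 4 libraries, and leaving out each library. All 10 members were named in every comparison, pathway genes where they passed, and the 2 genes most like each member by Pearson's r of log2 CPM (prior count 2); of the latter some are not printed. The members and lists were chosen with earlier results of these data known. The fit was tested on simulated counts. The κB consensus is 3 G, a purine, any base, A or T, a pair of pyrimidines and a pair of C. Protein sequences were not used here. The values of 1 marker gene are not reported here.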

Additional observations from a re-analysis of the deposited data

How the results depend on the processing

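In the TNF-α responses all 10 genes kept their direction under every alternative run, and Nfkb2, Relb, Nfkbia and Nfkbie passed in all 12 alternatives of each response. The count of members that rose in control KD was 5 when only the 4 control KD libraries were fitted, and 6 to 9 with 1 library left out. In GSTM1 KD it was 4 to 6 with 1 library left out, 7 with library size only, and 10 when only its 4 libraries were fitted or without the filter. It was 9 with DESeq2 in both responses, 9 without the filter in control KD and 9 with the replicate block in GSTM1 KD. In the basal knockdown comparison the count of lower members was 2 with DESeq2 or all 8 libraries, 3 without the filter or with the replicate block, and 0 to 4 with 1 library left out, and the count of higher members was 0 to 1. After TNF-α stimulation lower members numbered 2 with DESeq2 or the replicate block, 3 without the filter and 0 to 3 with 1 library left out. Higher members there numbered 1 with DESeq2, library size only, no filter or the replicate block, and 0 to 1 with 1 library left out. The member added as higher was Rel, and those added as lower after stimulation were Nfkb1 (DESeq2, no filter and block) and Nfkbiz (no filter).

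Rela was lower in all 12 alternatives of both states and passed in 10 of them. Some log2 differences near 0 turned sign. After stimulation, the values with 1 library left out ran from -0.30 to 0.012 for Nfkb2, -0.13 to 0.020 for Nfkbia and -0.20 to 0.089 for Nfkbie, each positive only without control KD replicate 2. In the interaction, Bcl3 gave 0.0099 without the filter, 0.028 with the replicate block and 0.29 with effective length offsets. With 1 library left out the interaction ranged from -0.24 to 0.26 for Bcl3, -0.78 to 0.0045 for Nfkb1, -0.16 to 0.13 for Nfkb2, -0.0069 to 0.71 for Rel, -0.070 to 0.20 for Nfkbie and -1.17 to 0.37 for Nfkbiz. The ratio of inhibitors to subunits from CPM was 0.290 in basal control KD, 0.311 in basal GSTM1 KD, 0.874 in stimulated control KD and 1.08 in stimulated GSTM1 KD. The cause was not tested.

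Over all genes the calls ran from 1 to 5256 and from 0 to 5028 in the knockdown comparisons, from 72 to 1255 and from 74 to 1050 in the responses, and from 0 to 134 in the interaction. Of the 34 other pathway genes, 7 to 13 and 10 to 16 were lower in the knockdown comparisons under alternatives with all libraries of the fit, and 3 to 10 and 5 to 9 rose in the responses. Pdlim2, the gene that fell, lost its call in the fit of 4 control KD libraries and with length offsets in GSTM1 KD. With 1 library left out these counts were 0 to 14, 0 to 15, 5 to 6 and 2 to 5. Replicates with the same number deviated together (r from 0.292 to 0.786 over 13313 genes), but the labels give only 2 numbers with no shared culture, so the block was not taken as a pairing. With it, Relb (adjusted p = 0.0104) and Nfkbia (adjusted p = 0.0172) were lower at the basal level, Nfkb1 lower (adjusted p = 0.0232) and Rel higher (adjusted p = 0.0178) after stimulation, and Rel rose after TNF-α in GSTM1 KD (adjusted p = 0.0162). With 2 libraries per group, a depth of 27 to 64 counts for Bcl3 at the basal level limits what can be seen of that gene.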
